A study of Mus musculus with 70 samples.

Results

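The genes described here are 10 genes of Bardet-Biedl syndrome, a disorder of the primary cilium in which obesity is a frequent feature. They were taken by name from the gene-level TPM values, a measure of transcript abundance normalised for transcript length and library size, and are 10 of 34677 genes listed there. Bbs1, Bbs2, Bbs4, Bbs5, Bbs7, Bbs9 and Ttc8 (also known as BBS8) encode 7 subunits of the BBSome, whose remaining subunit, Bbip1, is not among the 10 genes. Arl6 (also known as BBS3) encodes the small GTPase that brings the BBSome to membranes, and Mkks (also known as BBS6) and Bbs10 encode chaperonin-like proteins needed for its assembly. All 10 genes passed the filter on low counts.

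The BBSome is a coat-like complex that moves with the intraflagellar transport trains of the primary cilium, the single antenna-like projection found on most neurons, and carries membrane receptors into or out of it. Arl6 in its GTP-bound state recruits the complex to membranes, while Mkks, Bbs10 and a related protein act with the CCT chaperonin on Bbs7 to build the core of the complex. Several receptors that neurons place on their cilia act in the hypothalamic control of feeding.

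The study profiled bulk RNA from 70 libraries in 24 groups to map genes associated with obesity across brain regions of energy balance. The 57 adult libraries came from punch biopsies of male C57BL/6NTac mice at postnatal day 56, in 18 regions of 2 to 4 libraries. The 9 embryonic libraries came from C57BL/6NTac embryos at E14.5, and 4 libraries came from mouse embryonic stem cells (mESC) of the strain C57BL/6. No transgene or mutation is given for any group, and no mouse is described as drug-treated.

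The hypothalamic regions were the arcuate (ARH), dorsomedial (DMH), paraventricular (PVH) and ventromedial (VMH) nuclei and the lateral hypothalamic area (LHA). The cortical regions were the anterior cingulate area (ACA), frontal pole (FRP) and entorhinal area (ENT). The cerebellar cortex was sampled in central lobule II (CENT2), culmen lobules IV and V (CUL4,5), the uvula (UVU) and the flocculus (FL), and the cerebellar nuclei (CBN) were a region of their own. The hindbrain regions were the parabrachial nucleus (PB), the dorsal vagal complex (DVC) and the solitary tract nucleus (NTS), and the last adult regions were the nucleus accumbens (ACB) and the ventral tegmental area (VTA). The embryonic regions were forebrain (F, 1 library), midbrain (M), hindbrain (H) and the terminal and peduncular hypothalamus (THy/PHy). The stem cells were 2 lines, B6-1 and B6-2, each grown in LIF and the kinase inhibitors CHIR-99021, CI-1040 and PD0325901 and given as 1 clone with 2 libraries.

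An adult library held tissue pooled from 3 or 4 mice, except 1 ACB library made from 1 mouse, and an embryonic library held tissue of 4 embryos, so the spread between libraries is a spread between pools. The study used fewer mice and embryos than these pools would need one by one, so pools of different regions shared animals, in a way the labels do not give, and the tests treat the libraries as independent. Estimated counts per library ranged from 13409041 to 20647884 in the adult groups, from 9074581 to 22229582 in the embryonic groups and from 12985081 to 18501667 in mESC. The median mitochondrial share of TPM was 7.49%. VTA replicate 1 stood apart with 39.6%, and the next highest library, an embryonic one, had 22.6%. The summed pluripotency markers were 3927 to 4455 TPM in the mESC libraries and 2.11 to 19.02 TPM in the embryonic ones.

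X-box matches were sought in the promoters of these genes, since the X-box is the element bound by RFX transcription factors, which drive many ciliary genes. A relation between a match and the regional levels was not tested. The motif was searched on both strands as GTTNCCNNNGNAAC in RefSeq promoters of build GRCm38.p6, which run from 250 bases before to 50 bases after each start. All 10 genes were matched, with 11 promoters. The motif occurred in 0.804% of all 32851 promoters and, among these genes, in that of Bbs7. With any base in place of the T after GT (GTNNCCNNNGNAAC, which overlaps the first motif) it occurred in 2.17% of all promoters and in those of Bbs7, Bbs4 and Bbs1. The matches are printed on the strand of the gene, which is the minus strand for each of these genes, with the motif in capitals.
Bbs7, chr3:36613489-36613518, motif starting at base -121, with the start as base 0: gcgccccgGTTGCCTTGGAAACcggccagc
Bbs4, chr9:59353464-59353493, motif starting at base 23: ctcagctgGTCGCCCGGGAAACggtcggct
Bbs1, chr19:4906605-4906634, motif starting at base 1 and reading as such on the opposite strand: ctgagctgGTTGCCAAGGCGACgcctggga
A match is a description and does not show a bound site, and the other 7 genes hold no match to these letters in this window.

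In the annotation of build GRCm38 the subunits lie at chr19:4886878-4906628 (Bbs1), chr8:94067954-94098928 (Bbs2), chr9:59321990-59353508 (Bbs4) and chr3:36573142-36613477 (Bbs7), all on the minus strand, and at chr2:69647171-69667571 (Bbs5), chr9:22475715-22888280 (Bbs9) and chr12:98920574-98983238 (Ttc8) on the plus strand. Arl6 lies at chr16:59612949-59639391 and Mkks at chr2:136873780-136891389, both on the minus strand, and Bbs10 at chr10:111298679-111301727 on the plus strand.

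All 10 genes were detected in each of the 70 libraries, with rounded gene counts from 33 for Bbs10 to 1268 for Bbs4. Each differed among the 18 adult regions by the edgeR quasi-likelihood test, with Benjamini-Hochberg adjusted p from 5.13e-18 for Bbs9 to 1.26e-05 for Bbs10. Such a difference was common, being called for 80.9% of the 19980 genes tested. The regional range was modest: mean TPM in the highest adult region exceeded that in the lowest by a ratio of 1.67 for Bbs4, the smallest, and 3.34 for Ttc8, the greatest.

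**Figure D1:**
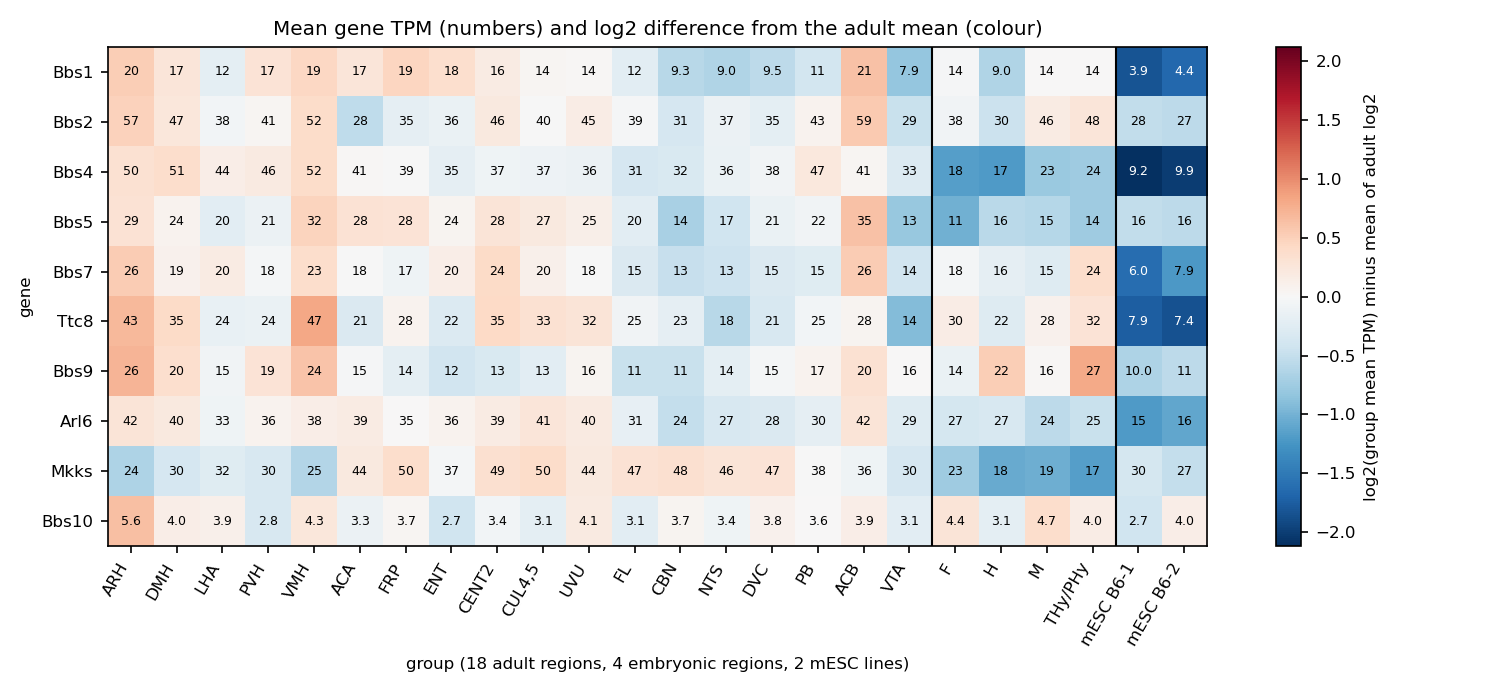
Mean gene TPM of the 10 genes (rows) in the 24 groups (columns), printed in each cell, with the colour giving log2 of the group mean minus the mean of the log2 values of the 18 adult regions. All 7 subunits are red in ARH and VMH. In ACB Bbs1, Bbs2, Bbs5, Bbs7 and Bbs9 are red. Bbs4 and Ttc8 are pale there, at 41.0 and 27.7 TPM, near their adult means of 40.3 and 27.6. Mkks is blue in the hypothalamic columns on the left, and most subunits are blue in the mESC columns on the right.

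Among the BBSome subunits, Bbs2 and Bbs4 had the highest levels per length. They carried on average 22.6% and 22.4% of the summed TPM of the 7 subunits over adult regions, followed by Ttc8 at 14.96%, Bbs5 at 13.05%, Bbs7 at 10.2%, Bbs9 at 8.87% and Bbs1 at 7.91%. These shares are on the scale of all annotated transcripts of each gene, and for several genes a large part is not protein-coding, as described below. Bbs10 was the lowest of the 10 genes in 18 of 18 adult regions, and the highest was Mkks in 9 regions, Bbs4 in 5 and Bbs2 in 4. The summed subunits were highest in VMH (250 ± 5.1 TPM, SD, n = 2), ARH (249 ± 16.7, n = 3) and ACB (231 ± 13.98, n = 3). They were lowest in VTA (126 ± 35.4, n = 3), CBN (134 ± 5.57, n = 3) and NTS (144 ± 6.26, n = 4). Without VTA replicate 1 the VTA sum was 146 ± 14.4 TPM (n = 2) and CBN was lowest.

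For the single genes the highest region was most often ARH or ACB. Bbs1, the subunit that binds Arl6, was highest in ACB (21.4 ± 1.91 TPM, SD, n = 3), next in ARH (19.98 ± 1.76, n = 3) and lowest in VTA (7.87 ± 4.04, n = 3). Bbs2 was highest in ACB (58.9 ± 3.92) and next in ARH (56.7 ± 7.01). Bbs5, a subunit that binds phosphoinositides, was highest in ACB (35.5 ± 1.93) and Bbs7 in ARH (26.4 ± 2.45) with ACB next to it (26.4 ± 4.41). ACB and ARH thus could not be ordered for Bbs7, Bbs1 or Bbs2, whose libraries overlapped between both regions.

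Bbs4, a subunit with tetratricopeptide repeats, was highest in VMH (52.1 ± 1.46 TPM, n = 2) and DMH (51.5 ± 2.49, n = 4). Ttc8, another subunit with such repeats, was highest in VMH (46.8 ± 4.15) and ARH (42.5 ± 5.64). Bbs9 was highest in ARH (25.7 ± 4.03) and VMH (23.8 ± 4.57). In each of these genes the libraries of the top region overlapped those of the next. Arl6 was highest in ACB (42.0 ± 1.16) and ARH (42.0 ± 2.94) and lowest in CBN (24.4 ± 2.72), with 7 regions overlapping the top one.

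Bbs10 was the only gene whose top region lay apart from every other adult region. Its levels in ARH were 4.56, 6.04 and 6.18 TPM, against at most 4.45 TPM in VMH, the next region, and 4.51 TPM in the cerebellar cortex. The gap was narrow, and the share of all genes so separated is not given. Mkks, in contrast, was lowest in ARH (24.4 ± 2.41, n = 3) and VMH (25.0 ± 0.70, n = 2), and highest in CUL4,5 (50.2 ± 5.52, n = 4) and FRP (49.6 ± 3.36, n = 3). Of the 17 pairs of regions that stood next to each other in the order of a gene's means, at most 2 did not overlap for any gene, so neighbouring regions are mostly not separable. The 3 lowest values in VTA (Bbs1, Bbs5 and Ttc8) include the library of high mitochondrial share. Without it VTA remained the lowest region for Ttc8, while NTS became lowest for Bbs1 and CBN for Bbs5.

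In the adult hypothalamus Arl6 and each of the 7 BBSome subunits among the 10 genes were higher than in the other adult regions, Bbs10 was not called, and Mkks and the subunit Bbip1 were lower. The background of this comparison was 26.9% of all genes tested called higher and 24.3% called lower, and the median log2 fold change was 0.24 over the 10 genes and 0.00 over all genes tested. Each log2 fold change is the mean of 5 hypothalamic regions (14 libraries) minus the mean of 13 other regions (43 libraries), with its standard error from the edgeR fit. In TPM, ARH, VMH and DMH each exceeded the mean of those 13 regions for Arl6 and all 7 subunits. LHA lay below it for Bbs1 (12.03 against 13.65), Bbs5 (19.8 against 23.4), Ttc8 (23.79 against 25.01) and Arl6 (32.5 against 34.01). LHA was about level for Bbs2 (38.4 against 38.7) and above for Bbs4, Bbs7 and Bbs9. PVH lay below for Bbs5 (21.1) and Ttc8 (23.9) and above for the other subunits and Arl6. These single regions were not tested. In bulk tissue, fewer cells of a type and less RNA per cell cannot be told apart.

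Bbs9 showed the greatest rise. Its levels were 14.4, 20.2 and 30.4 TPM (lowest, median and highest library) in the hypothalamus and 8.62, 14.2 and 23.2 TPM elsewhere. All 14 hypothalamic libraries lay above the median of the others, though the ranges overlapped, and the log2 fold change was 0.61 ± 0.04 (adjusted p = 1.42e-17).

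Ttc8 followed, at 21.2, 35.5 and 49.8 TPM against 10.4, 24.6 and 44.4 TPM elsewhere, with a log2 fold change of 0.39 ± 0.04 (adjusted p = 8.56e-12). Bbs4 was 41.7, 49.6 and 54.8 TPM against 18.9, 37.0 and 47.6 TPM, a log2 fold change of 0.29 ± 0.03 (adjusted p = 3.76e-13), and again 14 of 14 libraries lay above the other median. The remaining rises were between 0.12 for Bbs5 and 0.26 for Bbs1 and Bbs7, with Bbs2 at 0.23 and Arl6 at 0.13. Bbs10, at a log2 fold change of 0.11 ± 0.06, did not pass the test (adjusted p = 0.0987). When log2(TPM + 0.5) was tested with limma, Bbs5 was not called (0.13, adjusted p = 0.0814) and Bbs10 was called higher (0.20, adjusted p = 0.0165).

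Mkks moved the other way. Its levels were 21.6, 29.6 and 33.6 TPM in the hypothalamus against 14.3, 44.7 and 58.4 TPM elsewhere. None of 14 hypothalamic libraries reached the median of the others, and the log2 fold change was -0.58 ± 0.04 (adjusted p = 1.2e-16). The low end of the other regions was VTA replicate 1.

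**Figure D2:**
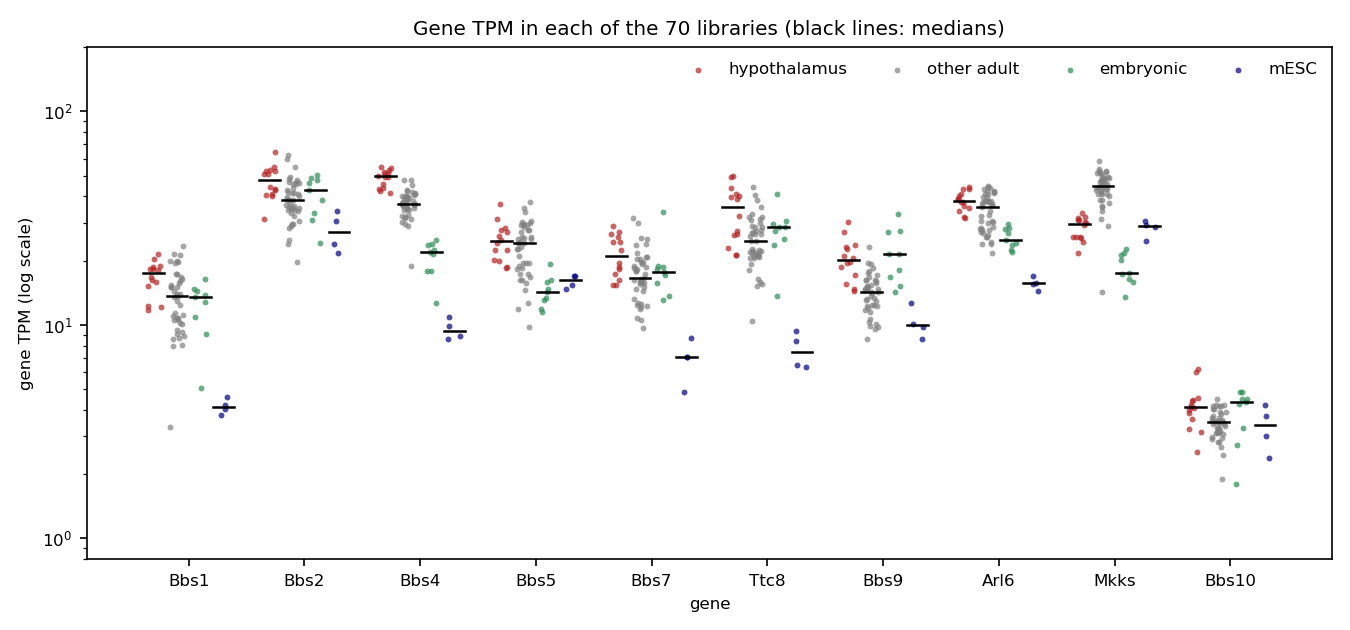
Gene TPM (log axis) of the 10 genes in each of the 70 libraries, with hypothalamic, other adult, embryonic and mESC libraries side by side and a line at each median. Hypothalamic Mkks lies under the bulk of the other adult libraries while hypothalamic Bbs4 and Bbs9 lie above it. The 4 mESC libraries lie under all embryonic ones for Bbs1, Bbs4, Bbs7, Bbs9, Ttc8 and Arl6. The share of all genes so separated is not given.

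Other genes of the cilium were counted in the same comparison. Its background was 26.9% of all genes tested called higher and 24.3% called lower. Of 13 further Bardet-Biedl genes tested, 5 were higher and 1 lower, the largest changes being those of Mks1, a transition zone protein (0.64), and Scaper (0.36), while Bbip1, the smallest BBSome subunit, was lower (-0.26). The transition zone, the gate at the base of the cilium, had 12 of 15 genes higher and none lower, led by Ahi1 (1.95). Of the genes of intraflagellar transport, complex A had 4 of 6 higher and complex B 9 of 17 higher with 3 lower. The CCT chaperonin, the folding machine that works with Mkks and Bbs10, had 7 of 7 tested subunits higher, with a median log2 fold change of 0.20. Among membrane proteins of neuronal cilia 9 of 13 were higher and 3 lower, with the greatest rise in Npy2r (3.01).

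Markers of other cells moved with this comparison too. Of 10 markers of ependymal and motile-ciliated cells 8 were higher in the hypothalamus, and their summed TPM was 28.2 to 399 (median 193) there and 10.4 to 1021 (median 34.4) elsewhere, with none of the 10 at 0 throughout. Microglial markers were higher in 6 of 6, with sums of 191 to 271 TPM against 72.9 to 307. The part of these cells in the differences was not tested. The highest ependymal sum was in a library of the cerebellar cortex.

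Within the hypothalamus, 7 of the 10 genes were higher in ARH (3 libraries) than in the other 4 regions (11 libraries) and none was lower. The background was 13.3% called higher and 10.3% called lower, with a median log2 fold change of 0.27 over the 10 genes and 0.02 over all genes tested. Bbs10 rose most, at a log2 fold change of 0.53 ± 0.11, and its libraries (4.56, 6.04 and 6.18 TPM) did not overlap those of the other hypothalamic regions (2.53 to 4.45 TPM). The gap was narrow, and the share of all genes so separated is not given here. Bbs10 was followed by Ttc8 (0.46), Bbs9 (0.45), Bbs7 (0.31), Bbs2 (0.29), Bbs1 (0.26) and Bbs5 (0.23), each with overlapping libraries. Arl6 (0.14), Bbs4 and Mkks were not called.

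These calls depended on the scale. With limma on log2(TPM + 0.5), Bbs10 alone was called, and no gene was called when ARH replicate 1 or ARH replicate 3 was left out. With the protein-coding transcripts alone 4 genes (Bbs2, Bbs7, Bbs9 and Ttc8) were called higher and Bbs10 was not (0.49, adjusted p = 0.0802), its lowest ARH library, at 3.68 TPM, lying under the highest DMH one at 4.09 TPM. In the same comparison 9 of 15 transition zone genes, 5 of 6 genes of transport complex A and 4 of 17 of complex B were higher, and none of these lists had a lower gene. Ependymal markers summed to 192 to 218 TPM in ARH and 28.2 to 399 TPM in the other hypothalamic libraries, while oligodendrocyte markers were lower in 6 of 6, at 978 to 1638 TPM against 1513 to 13774. Neuronal markers were 2676 to 2924 TPM against 3086 to 3953, and pituitary markers 68.9 to 105 TPM against 0.0 to 14.6. Their part in the rise of the Bardet-Biedl genes was not tested.

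The nucleus accumbens had 6 of the 10 genes higher than the other 17 adult regions (54 libraries) and none lower. The background was 21.8% called higher and 19.5% called lower. Bbs1 was 19.5, 21.2 and 23.3 TPM in the 3 ACB libraries, against 3.33 to 21.53 TPM elsewhere, a log2 fold change of 0.65 ± 0.08 (adjusted p = 2.28e-09). Bbs2 was 54.7, 59.6 and 62.4 TPM against 19.7 to 64.4 TPM, a log2 fold change of 0.65 ± 0.06 (adjusted p = 2.98e-13). Both genes overlapped the other libraries only at their upper end.

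Bbs5 was 33.7, 35.3 and 37.5 TPM in ACB against 9.73 to 36.9 TPM, a log2 fold change of 0.58 ± 0.06 (adjusted p = 3.74e-11). Bbs9 (0.50), Arl6 (0.29) and Bbs7 (0.25) were also higher, while Bbs4 (0.05), Ttc8 (0.03), Bbs10 (0.13) and Mkks (0.13) were not called. Tested with limma on the log2(TPM + 0.5) scale 5 genes were called, without Bbs9 (0.34, adjusted p = 0.0527), and 3 without ACB replicate 1. Beside this, 7 of 15 transition zone genes were higher and none lower, and the ciliary membrane gene Drd1, abundant in striatal neurons, was higher by 6.96 on the log2 scale. Ependymal markers were at 20.5 to 51.8 TPM in ACB, against 10.4 to 1021 elsewhere, and microglial markers were again higher in 6 of 6. Astrocyte markers were lower in 5 of 6 in ACB, at 1191 to 1363 TPM against 928 to 5953, and of 6 progenitor and cycling markers 3 were higher and 2 lower. The part of these cells in the rise was not tested.

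In the cerebral cortex the calls went both ways, as they did among all genes tested. Of the 10 genes 4 were higher and 3 lower than in the other 15 adult regions (48 libraries), beside a background of 28.9% higher and 29.8% lower. Bbs1 was higher, at 13.96, 17.2 and 21.53 TPM (lowest, median and highest of 9 libraries) against a median of 13.6 TPM, a log2 fold change of 0.53 ± 0.05, and 9 of 9 libraries lay above that median. Bbs5 (0.32) and Arl6 (0.19) were higher too. Bbs2 was lower, at 23.9, 34.6 and 41.0 TPM against a median of 41.7 TPM, a log2 fold change of -0.27 ± 0.04, with none of 9 libraries above the median. Bbs9 (-0.24) and Ttc8 (-0.21) were lower. The calls of Arl6 (0.10, adjusted p = 0.154) and Ttc8 (-0.20, adjusted p = 0.051) were lost with limma on log2(TPM + 0.5). Mkks was called higher (0.37 ± 0.05), although its median TPM was 41.5 in the cortex and 42.7 elsewhere and 4 of 9 cortical libraries lay above the latter. Oligodendrocyte markers were lower in 6 of 6 in the cortex, at 640 to 2151 TPM against 978 to 18327, astrocyte markers in 5 of 6 and ependymal markers in 7 of 10. Microglial markers were higher in 6 of 6 and neuronal markers in 5 of 6, the latter at 4087 to 6417 TPM against 2676 to 5442. Their part in the differences was not tested.

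The cerebellar cortex had 2 of the 10 genes higher and 5 lower than the other 14 adult regions (42 libraries), against a background of 32.9% higher and 33.1% lower. Bbs4 was lower, at 29.0, 35.4 and 40.1 TPM (lowest, median and highest of 15 libraries) against a median of 41.1 TPM, a log2 fold change of -0.37 ± 0.03, and none of 15 libraries reached that median. Bbs9 was also lower (-0.47 ± 0.04), as were Bbs10 (-0.24), Bbs1 (-0.15) and Bbs5 (-0.11). Mkks was higher (0.23 ± 0.04), with 15 of 15 libraries above the other median of 37.9 TPM, and Ttc8 by 0.11.

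Several of these differences changed with the scale. On the TPM scale, which shifted the median of all genes by 0.15 in this comparison, Bbs1 (0.01) and Bbs5 (0.12) had the opposite sign and were not called, Bbs10 was not called (-0.08, adjusted p = 0.311), and Arl6, at -0.02 and not called in the count test, was called higher at 0.15. Granule cell markers summed to 1072 to 2860 TPM in the cerebellar cortex and 6.09 to 397 TPM elsewhere, microglial markers were lower in 6 of 6 and oligodendrocyte markers in 5 of 6, and astrocyte markers were higher in 4 of 6. Their part in the differences was not tested.

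In the hindbrain nuclei 5 of the 10 genes were lower and 1 higher than in the other 15 adult regions (47 libraries), with a background of 24.6% lower and 26.1% higher. Bbs1 fell most, at 7.98, 9.79 and 11.1 TPM (lowest, median and highest of 10 libraries) against a median of 15.3 TPM, a log2 fold change of -0.59 ± 0.06, and none of 10 libraries reached the other median. The same held for Ttc8 (-0.32 ± 0.05), Arl6 (-0.30 ± 0.05) and Bbs7 (-0.22 ± 0.05). Bbs5 was lower too (-0.26), with 1 of 10 libraries above the other median. Oligodendrocyte markers were higher in 6 of 6 here, summing to 10122 to 15342 TPM against 640 to 18327 TPM, and their part in the fall was not tested. The call of Mkks as higher (0.11 ± 0.05, adjusted p = 0.0338) was lost when the protein-coding transcripts were taken alone (-0.06, adjusted p = 0.367), and none of the 10 genes was called higher by limma without DVC replicate 2.

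**Figure D3:**
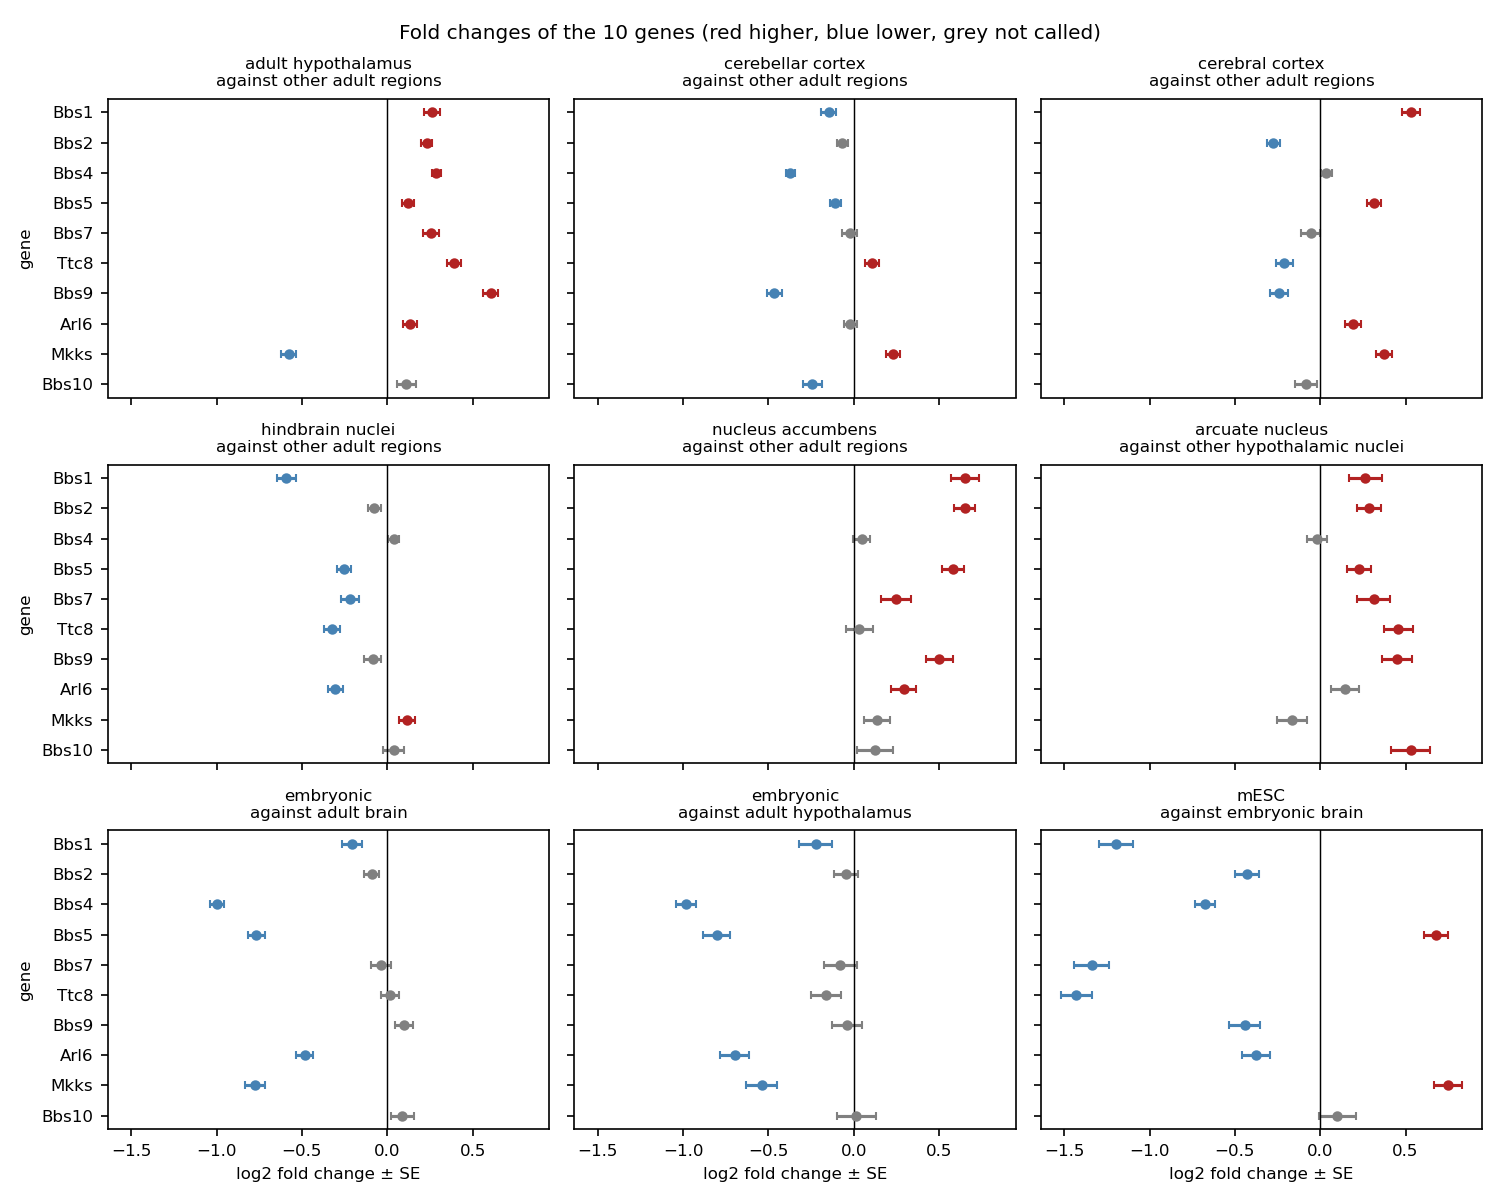
Log2 fold change with its standard error from the edgeR fit (horizontal axis) of each of the 10 genes in 9 comparisons, with red for called higher, blue for called lower and grey for not called. In the panel of the adult hypothalamus 8 genes lie to the right of 0 in red and Mkks alone to the left, and in the mESC panel 7 genes lie to the left and Bbs5 and Mkks to the right.

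The comparisons of adult regions share libraries as their controls, and so do those of the embryonic groups, so their results are not independent of each other. The 9 embryonic libraries had 5 of the 10 genes lower than the 57 adult libraries and none higher by the count test, with 36.7% of all genes tested called lower and 37.6% higher. Bbs4 fell by 1.00 ± 0.04 on the log2 scale, Mkks by 0.78 ± 0.06, Bbs5 by 0.77 ± 0.05, Arl6 by 0.48 ± 0.05 and Bbs1 by 0.21, the last a call that was lost with limma on log2(TPM + 0.5) (adjusted p = 0.136). Bbs2, Bbs7, Bbs9, Ttc8 and Bbs10 were not called. On the TPM scale Bbs9 was called higher (0.29), and with the protein-coding transcripts alone Bbs10 (0.28) and Ttc8 (0.14) were called higher. The latter setting shifted the median of all genes by 0.08 in this comparison.

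Within the hypothalamus, the 3 THy/PHy libraries showed the same 5 genes lower than the 14 adult libraries, beside a background of 33.6% lower and 33.9% higher. Bbs4 was 24.9, 22.0 and 23.8 TPM in the embryo and 41.7 to 54.8 TPM in the adult, a log2 fold change of -0.98. Bbs5 was 16.2, 13.4 and 11.9 TPM against 18.4 to 36.9 TPM, a log2 fold change of -0.80. For both genes the embryonic and adult libraries did not overlap.

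Arl6 was 28.4, 24.2 and 21.9 TPM in THy/PHy against 31.6 to 44.2 TPM in the adult hypothalamus (-0.70), and Mkks was 21.2, 13.4 and 16.5 TPM against 21.6 to 33.6 TPM (-0.54). These genes did not overlap between stages either, though for Mkks the gap was narrow. The share of all genes whose libraries were so separated is not given here. The libraries of Bbs1 (-0.22) overlapped between stages, and its call was lost with limma (-0.26, adjusted p = 0.186) and with the protein-coding transcripts alone (-0.13, adjusted p = 0.227). The latter setting shifted the median of all genes by 0.09 in this comparison. Bbs9, at -0.04 and not called, was called higher on the TPM scale (0.40, limma adjusted p = 0.0172) and lower with the protein-coding transcripts alone (-0.27, adjusted p = 0.0275). The limma call was lost without THy/PHy replicate 2 or replicate 3, with adjusted p up to 0.23. The CCT subunits, in contrast to Mkks, were higher in 7 of 7 in the embryonic against the adult brain, with a median log2 fold change of 0.69. Cell makeup differed widely between the stages: oligodendrocyte markers were 19.6 to 58.5 TPM in the embryo and 640 to 18327 TPM in the adult, astrocyte and microglial markers were each lower in 6 of 6, and progenitor markers were higher in 6 of 6. Their part in the differences was not tested.

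In mESC 7 of the 10 genes were lower than in the 9 embryonic libraries, 2 were higher and Bbs10 was not called, with 38.9% of all genes tested called lower and 38.7% higher. The study extracted mESC RNA with TRIzol and the RNeasy Plus Micro kit, and that of the punches with the PicoPure kit. Extraction and cell type cannot be told apart in this comparison. Ttc8 was 6.36, 7.43 and 9.36 TPM (lowest, median and highest of 4 libraries) against 13.6 to 41.0 TPM, a log2 fold change of -1.43 ± 0.09. Bbs7 was 4.87, 7.05 and 8.66 TPM against 13.01 to 33.7 TPM (-1.34 ± 0.10), and Bbs1 was 3.79, 4.13 and 4.59 TPM against 5.04 to 16.4 TPM (-1.20 ± 0.10). These 3 genes fell more than 2-fold, as did 29.0% of all genes tested.

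Bbs4 (-0.68), Bbs9 (-0.44), Bbs2 (-0.43) and Arl6 (-0.38) fell less. With the protein-coding transcripts alone, which shifted the median of all genes by 0.09 in this comparison, Bbs9 was not called (-0.17, adjusted p = 0.146). Mkks rose by 0.75 ± 0.08, with all 4 mESC libraries (24.7 to 30.5 TPM) above all embryonic ones (13.4 to 22.6 TPM). The share of all genes separated in this way is not given. On its protein-coding transcripts alone Mkks was still called higher by edgeR (0.65, adjusted p = 2.34e-08). The TPM of these coding transcripts overlapped, however, at 5.85 to 7.36 in mESC and 4.33 to 7.65 in the embryo. Bbs5 was called higher (0.68 ± 0.07) in the count test, with TPM of 14.7 to 17.01 against 11.5 to 19.3, and was not called on the TPM scale (0.20), which shifted the median of all genes by -0.32 in this comparison. Of the other Bardet-Biedl genes 10 of 13 were lower and 1 higher, with Trim32 at -2.24 and Scaper at -1.61, and complex B of intraflagellar transport had 11 of 17 lower and 4 higher. The CCT chaperonin was higher in 7 of 7, with a median log2 fold change of 1.34. Mkks was called higher too, while Bbs10, the other chaperonin-like gene, was not called. A relation of these changes to those of the subunits was not tested.

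Most of the TPM assigned to Mkks belonged to a transcript annotated as not coding. Mkks-203, a processed transcript of 4 exons and 810 bases on the minus strand of chromosome 2, carried 77.9% of the adult Mkks TPM, with 18.9% for the coding transcript Mkks-202 and 3.22% for Mkks-201. Its share ranged from 69.9% in ARH to 85.9% in CBN and was 67.8% in the embryonic regions and 75.9% in mESC. Of its bases 761 (94%) also lie in exons of the coding transcripts, mainly upstream of the start codon, and 17 are coding bases. Reads of 33 bases from the shared part cannot by themselves be told apart between these transcripts, so the split is the model's estimate. Human MKKS is known to have transcripts that carry upstream reading frames and end early. The genes AL731706.1 and AL731706.2 overlap this stretch on the same strand and were not analysed here.

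The regional order of Mkks depended on this transcript. Mkks-203 was 17.05 ± 2.99 TPM (SD, n = 3) in ARH and 17.8 ± 0.54 (n = 2) in VMH, against 41.6 ± 4.95 (n = 3) in CBN. The coding transcripts together were 7.33 ± 1.01 TPM in ARH, 7.20 ± 0.16 in VMH and 6.81 ± 0.46 in CBN, which do not differ beyond their spread. They were highest in CUL4,5 (11.5 ± 1.08) and ACA (11.3 ± 0.91). With the coding transcripts alone Mkks remained lower in the hypothalamus, at a log2 fold change of -0.43 ± 0.05 (adjusted p = 2.17e-10), and was called higher in ACB (0.41 ± 0.09, adjusted p = 1.12e-04). The hypothalamic means ran from 6.50 TPM in DMH to 7.37 TPM in LHA. PB was close at 7.39 TPM, CBN and VTA (5.03 ± 2.60) lay within or below this range, and every other adult region was higher.

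**Figure D4:**
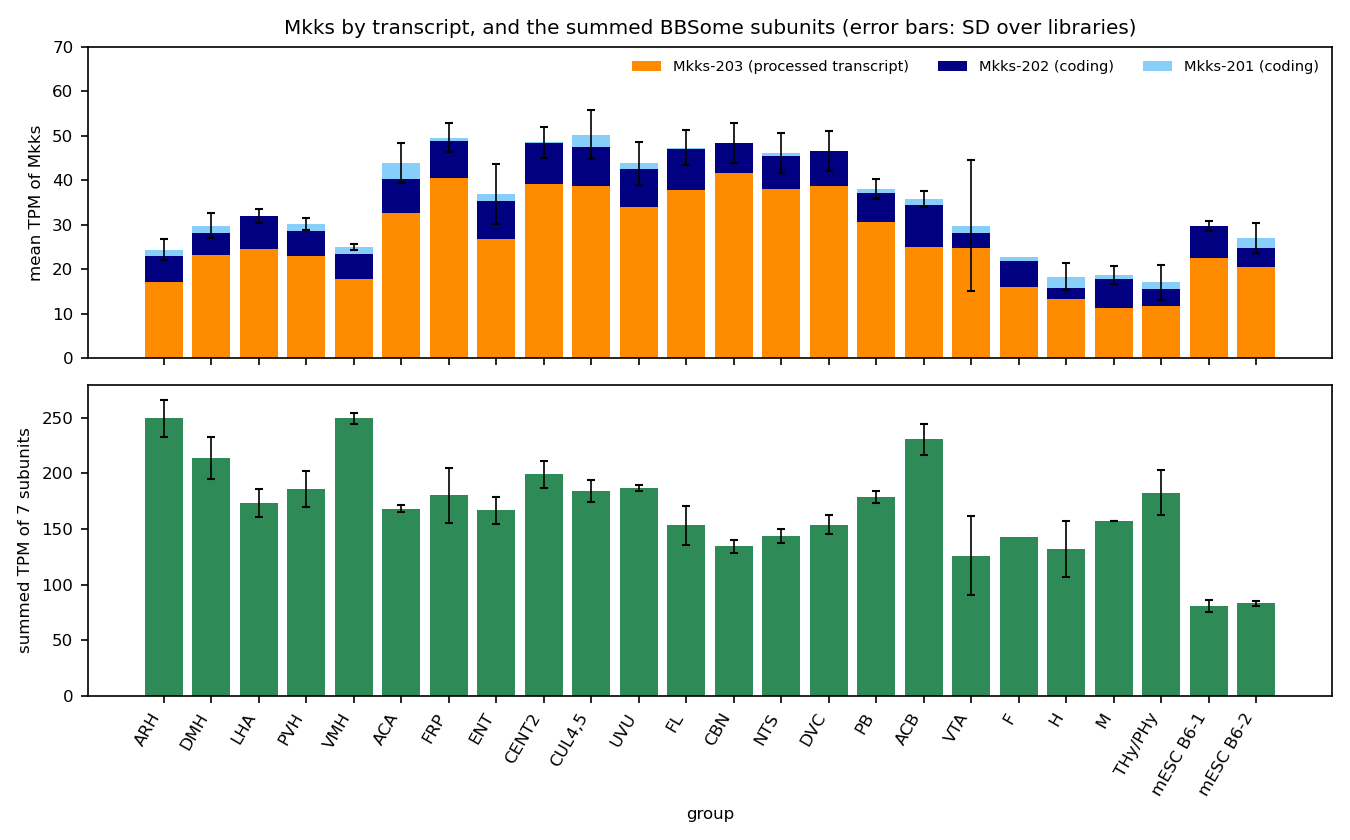
Upper panel, mean TPM of Mkks in the 24 groups stacked by transcript, with the SD of the gene total over libraries; lower panel, summed TPM of the 7 BBSome subunits with its SD. Mkks-203 fills most of each upper bar, and ARH and VMH combine the 2 lowest adult Mkks bars with the 2 highest subunit sums. F, with 1 library, has no error bar.

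Other members had non-coding annotation as well. In Bbs2, 34.2% of the adult TPM was assigned to the coding transcript and 48.6% to Bbs2-202, which is annotated as a retained intron. The coding share was 46.3% for Bbs5, 46.1% for Ttc8, 61.8% for Bbs9 and 86.7% for Bbs10, and it was 100% for Bbs1 and Arl6. The rise of Bbs2 (0.22), Bbs5 (0.22) and Ttc8 (0.40) in the hypothalamus was still called with the coding transcripts alone. Bbs4 overlaps Adpgk over 2063 bases on the other strand, and Adpgk had a median adult TPM of 14.47. The kit was strand-specific, but whether the pseudoalignment used the strand is not given in the sources used here.

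The profiles of the subunits ran together over the adult regions. Over 18 regional means on the log2(TPM + 0.5) scale the 21 pairs of subunits had a Pearson r of 0.45 to 0.88, with a median of 0.64, and Bbs1 with Bbs5 (0.88) and Arl6 with Bbs1 (0.87) were among the highest. Mkks had an r below 0 with all 9 other genes, from -0.82 with Bbs9 to -0.12 with Bbs5. With coding transcripts only, the r of Mkks ranged from -0.37 to 0.48 and was below 0 for 4 genes, whereas the pairs of subunits had a median of 0.63. Over the 22 brain regions, embryonic ones included, and all transcripts, the subunit pairs had an r of 0.08 to 0.78, with a median of 0.49. There Mkks was below 0 with 6 genes and above 0 with Bbs4 (0.45), Bbs5 (0.42) and Arl6 (0.33). These regional means share libraries, depth and dissection, and the values are a description.

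**Figure D5:**
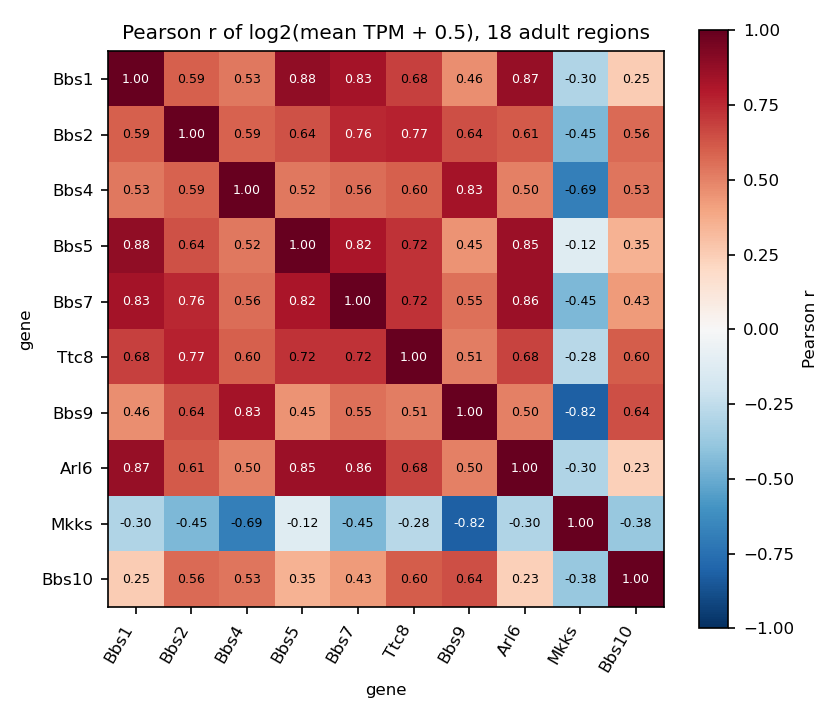
Pearson r between the 10 genes over 18 adult regional means on the log2(TPM + 0.5) scale, printed in each cell and coloured from -1 to 1. The block of the 7 subunits and Arl6 is red throughout, with subunit pairs from 0.45 to 0.88, and the Mkks row is blue for all 9 other genes.

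Over the 22 brain regions, embryonic ones included, the gene most like each member among 8972 genes of at least 5 TPM in every region was Gna11 for Bbs1 (r = 0.91), Vmac for Bbs2 (0.85), Scg5 for Bbs4 (0.98) and Ets2 for both Bbs5 (0.94) and Arl6 (0.90). It was Ago2 for Bbs7 (0.86), Por for Bbs9 (0.88), Psme2 for Bbs10 (0.77), Zmym1 for Ttc8 (0.87) and Scn8a, a neuronal sodium channel, for Mkks (0.95). Another gene took this place for each of the 10 when the 18 adult regions were used alone, so the nearest gene depended on the regions used.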

How the data were processed

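The 10 genes and all gene lists were chosen with earlier results of these data known. Libraries were made with a strand-specific poly(A) kit (KAPA mRNA-Seq) and sequenced as single reads of 33 bases. Per the labels and the study's methods, the authors used CASAVA 1.8.2 and Kallisto on Ensembl GRCm38 cDNA sequences, and deposited estimated counts and TPM per transcript and TPM per gene. Estimated counts were summed per gene with the GENCODE M21 annotation (98.8% of 109282 transcripts matched, 0.418 to 0.767% of counts unmatched) and rounded. Levels are deposited TPM. Differences were tested with the edgeR 4.0.16 quasi-likelihood test (TMM, filterByExpr, 1 coefficient per group, all 70 libraries) with Benjamini-Hochberg adjustment over 19980 genes, called at adjusted p under 0.05. F has 1 library. Alternatives were DESeq2 1.42.0, limma 3.58.1 on log2(TPM + 0.5) and log2(TPM + 0.1), no filter, a replicate block, subsets of libraries and, added after seeing the data, protein-coding transcripts only. The fit was tested on simulated data. The named genes are the 10 members, the nearest gene to each by Pearson r, the transcript of highest TPM, and the largest 2 called genes of a list, or those of a list with at most 5, apart from genes not reported here. Libraries of 1 group differed beyond sampling noise in all 74 pairs. Deviations from the group means had a median r of 0.0138 between libraries of the same replicate number in different groups. Such pairs exceeded 0.1 in 108 of 669 cases, against 174 of 1603 for other numbers. The median does not show whether some libraries were paired. p-values measure the spread between pools and, in mESC, between the libraries of a clone. Collection batches are not in the labels and were not modelled.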

Additional observations from a re-analysis of the deposited data

Results flagged for a closer look

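In the groups of 4 libraries, 50 sets of values were examined for a library far from the other 3, and chance gives about 1 in 20. In FL, Bbs9 was 16.0 TPM in replicate 1 and 9.57 to 10.1 TPM in the other libraries, and the gap was 0.923 of the range. In CENT2, Ttc8 was 44.4 TPM in replicate 2 and 31.1 to 33.2 TPM in the others, with a gap of 0.842 of the range.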

How the results depend on the processing

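The member counts in the adult hypothalamus (8 higher, 1 lower) and among adult regions (10) stayed within 1.5 times under DESeq2, limma, no filter, the replicate block, the subsets of libraries and coding transcripts only, though limma called Bbs10 higher in the hypothalamus in place of Bbs5. With limma on log2(TPM + 0.5) and on log2(TPM + 0.1) the cerebellar cortex had 2 lower, ARH 1 higher, the embryonic against adult brain 1 higher, THy/PHy 1 higher and mESC 1 higher; Bbs1 in the cerebellar cortex was 0.013 and 0.017, Bbs5 0.12 and 0.13, Arl6 0.15 and 0.15, and Bbs9 in THy/PHy 0.40 and 0.40. With coding transcripts only the hindbrain had 0 higher (Mkks -0.062), ARH 4 and the embryonic against adult brain 2. The median r of subunit pairs was then 0.56 against 0.49 with all transcripts over 22 regions. Over the 18 adult regions it was 0.63 against 0.64. Without the filter the hindbrain had 0 higher. The cause was not tested. The replicate block changed none of 90 calls. Of these calls DESeq2 kept 88, no filter 84, limma 70 and coding transcripts 79. All genes called in ARH numbered 4728, and 2874 and 2594 with limma, 2629 without replicate 2 and 3111 without replicate 3.

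With 1 replicate number left out in edgeR or 1 library in limma (not run in edgeR), member counts higher ranged over 6 to 9 in the hypothalamus, 0 to 7 in ARH, 1 to 4 in the cerebellar cortex, 2 to 4 in the cortex, 0 to 2 in the embryonic brain, 0 to 1 in THy/PHy, 0 to 1 in the hindbrain, 1 to 2 in mESC and 3 to 6 in ACB. Counts lower ranged over 1 to 1 in the hypothalamus, 2 to 5 in the cerebellar cortex, 2 to 4 in the cortex, 4 to 6 in the embryonic brain, 4 to 5 in THy/PHy, 5 to 5 in the hindbrain and 7 to 8 in mESC, and all adult regions gave 10 to 10. Genes keeping their highest region numbered 7 to 10 and their lowest 6 to 10. Counting error was greatest for Bbs10, at 33 to 162 counts per library.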
